A study of Mus musculus with 31 samples.

Results

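The FOXO pathway was followed through 10 genes in the caudate putamen (CPu) of Brd1+/- and wild type (WT) mice. They were the transcription factors Foxo1 and Foxo3, the regulators of their input Pik3ip1 and Irs2, and the target genes Depp1, Txnip, Sesn1, Ccng2, Klhl24 and Bcl6. These are 10 of the 52636 genes in the expression table, and all 10 passed the filter on low expression. The group was chosen by the expression of Depp1 and Pik3ip1, which had been seen to be higher after imipramine (IMN, a tricyclic antidepressant) in Brd1+/- mice, and the other members by their known place in the pathway. That comparison is therefore given below as a description, without a test of its genes.

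RNA was sequenced from punches of the right CPu of 31 mice labelled female, 8 to 11 weeks old, of the strain labelled C57BL/6NTac-Brd1 (C57BL/6NTac-Brd1tm1.2Arte/AborgMmucd in the study's methods). Brd1+/- mice carry a targeted deletion, made with loxP sites around exons 3 to 5, on 1 allele of Brd1, which encodes a chromatin scaffold protein, and were compared with litter-matched WT mice. There were 8 WT and 7 Brd1+/- mice given saline vehicle, and 8 WT and 8 Brd1+/- mice given IMN at 10 mg/kg. All mice, vehicle groups included, were injected on 2 days, went through tail suspension, open field and forced swim tests, and were killed 1 h after the swim. Levels are in TPM, a transcript abundance corrected for gene length and brought to a common total in every mouse, which does not show the depth of each mouse. For depth, the study's methods state a lower limit and no value per sample.

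FOXO proteins are forkhead transcription factors held in check by insulin and growth factor signaling. Active PI3K leads to phosphorylation of FOXO by AKT and to its retention outside the nucleus by 14-3-3 proteins, and when this input falls FOXO enters the nucleus and switches on genes for cell cycle arrest, stress resistance, autophagy and fuel use. Because FOXO is controlled mainly by phosphorylation and location, mRNA levels of the factors do not report its activity. In the brain Foxo1 mRNA is known to be rich in striatum, whereas Foxo3 is spread widely.

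The targeted gene followed its labels. Under vehicle, Brd1 reached 22.5 ± 2.97 TPM (SD, n = 8) in the WT group, and Brd1+/- mice had 13.4 ± 2.02 TPM (SD, n = 7). Under IMN the means were 19.9 and 12.8 TPM. WT vehicle mouse 7 held 26.8 TPM in sum over 4 Y-linked genes, against at most 0.188 TPM in any other mouse, which goes against its label of female. Tissue markers also differed within the WT vehicle group. The sum of 10 cortical neuron markers (Slc17a7, Neurod6 and others, all detected) ran from 11.96 to 1878 TPM with a median of 1311 in WT vehicle mice, and the medians were 127, 58.1 and 108 TPM in Brd1+/- vehicle, WT IMN and Brd1+/- IMN mice. The sum of 10 striatal neuron markers (Drd1, Drd2, Adora2a and others, all detected) ran from 276 to 10474 TPM in WT vehicle mice and from 8425 to 9819 TPM in Brd1+/- vehicle mice. By the mean of the cortical markers, 6 of the 8 WT vehicle mice lay above every Brd1+/- vehicle mouse, and mice 6 and 8 did not. In a piece of tissue, a different share of cells of a type and a different amount of RNA per cell cannot be told apart.

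Foxo1 (chr3:52268336-52353221, plus strand, GRCm38) was the member with the widest spread. In WT vehicle mice it ran from 3.32 through a median of 19.9 to 40.7 TPM. In Brd1+/- vehicle mice the lowest, median and highest values were 33.0, 36.5 and 44.4 TPM. WT vehicle mice thus included the lowest Foxo1 levels of the series, but their highest values lay among those of the other groups. Under IMN, Foxo1 ran from 25.8 through 38.0 to 47.8 TPM in WT mice. In Brd1+/- mice under IMN it ran from 30.8 through 36.9 to 43.2 TPM. Group means were 38.0, 37.1, 36.9 and 21.5 TPM in WT IMN, Brd1+/- IMN, Brd1+/- vehicle and WT vehicle mice, and the first 3 of these differed by less than their SDs of 8.01, 4.40 and 3.72 TPM.

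**Figure D1:**
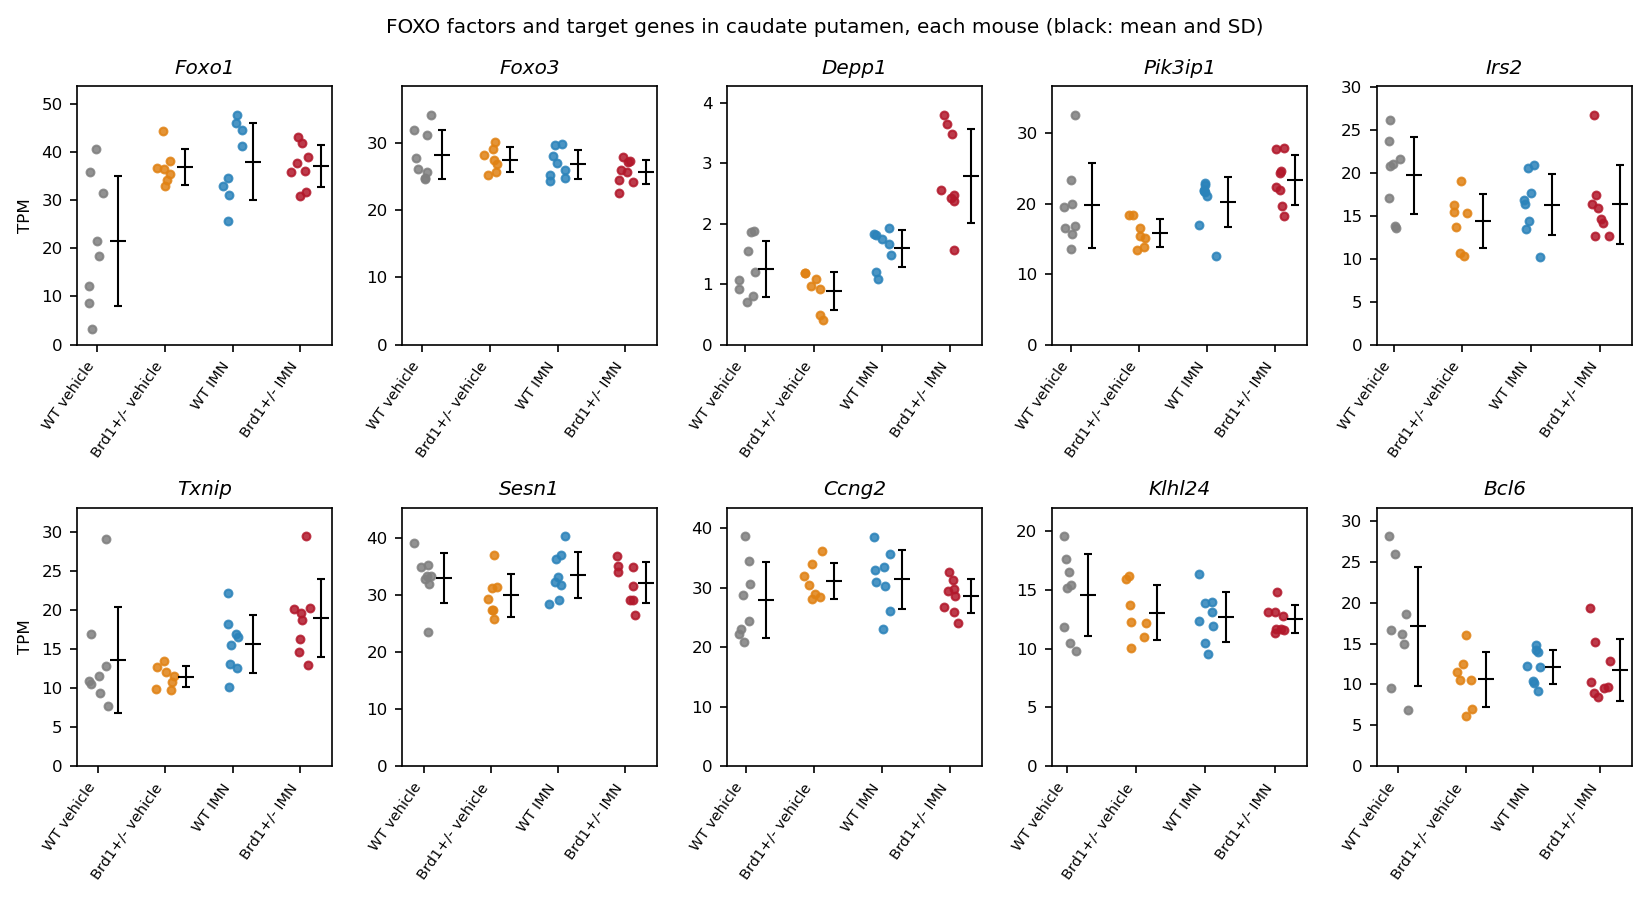
TPM of the 10 genes (vertical axis, from 0) in each mouse of the 4 groups, with the mean and SD in black beside each group. Foxo1 reaches from 3.32 to 40.7 TPM in WT vehicle mice, and the 8 Brd1+/- IMN mice lie above the 7 Brd1+/- vehicle mice for Depp1.

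The difference of Foxo1 between IMN and vehicle in WT mice was 1.07 in log2(TPM + 1), with a 95% interval from 0.28 to 1.86 (adjusted p = 0.144 from limma, over all genes tested), and 4 of the 8 IMN mice lay above every vehicle mouse. Between Brd1+/- and WT mice under vehicle the difference was 1.05, with an interval from 0.24 to 1.87 (limma, adjusted p = 0.0868). Neither passed the threshold of p under 0.01. In the first comparison p was under 0.01 in 3 of 12 other settings, with limma's adjusted p down to 0.0250, and in the second in 4 of 12, with an adjusted p down to 0.0139. With a mouse left out, limma's adjusted p went down to 0.0485 without WT vehicle mouse 8 in the first, and to 0.0327 without mouse 6 and 0.0349 without mouse 8 in the second, which pass an FDR of 5%. Both comparisons rest on the same WT vehicle mice, and the marker levels moved with the gene in them. After subtraction of group means, the correlation of Foxo1 with the mean of the striatal markers was 0.98 over the 8 WT vehicle mice and 0.50 over the other 23 mice. With the striatal marker mean fitted as a covariate, a choice made after the data were seen, the differences were 0.25 (limma, adjusted p = 0.812) and 0.13 (limma, adjusted p = 0.678), and with the cortical marker mean they were 0.49 (limma, adjusted p = 0.833) and 0.39 (limma, adjusted p = 0.806). Leaving out WT vehicle mouse 7 gave 1.12 (limma, adjusted p = 0.208) and 1.10 (limma, adjusted p = 0.116). Under IMN the genotypes differed by -0.02, with an interval from -0.27 to 0.23 (limma, adjusted p = 0.998).

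**Figure D2:**
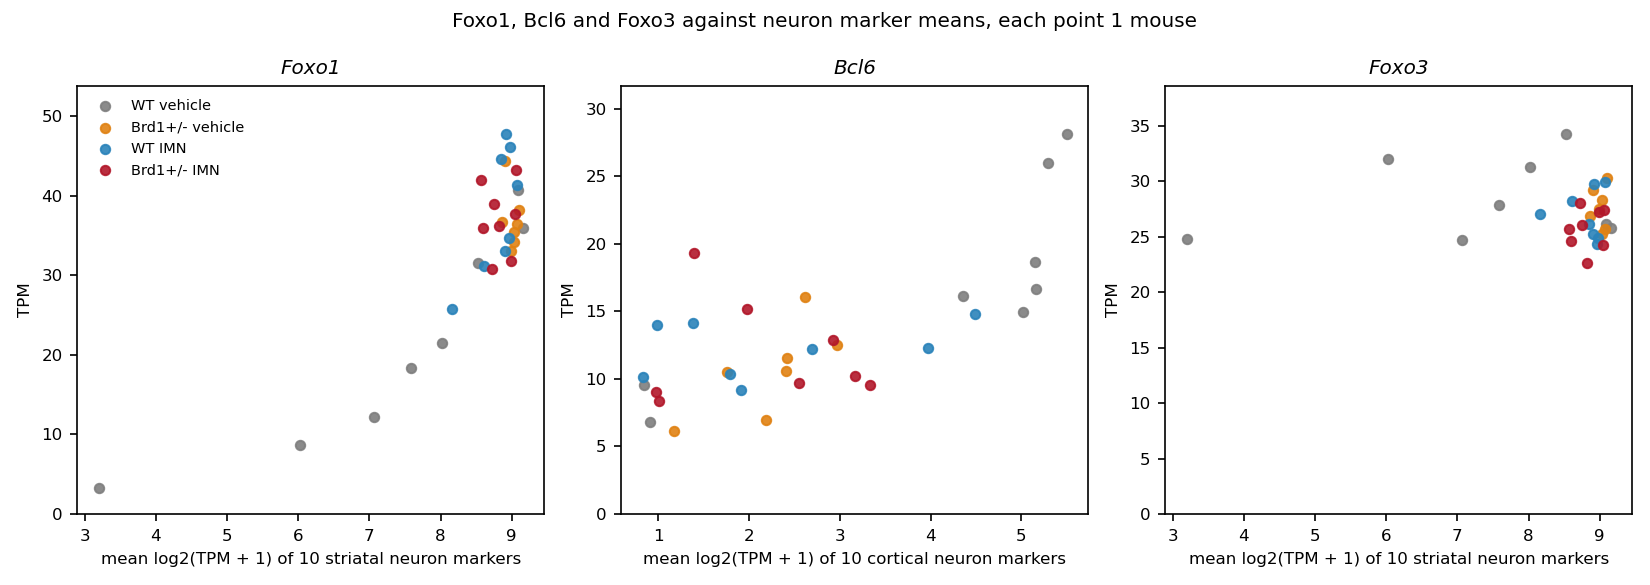
TPM of Foxo1, Bcl6 and Foxo3 (vertical axes, from 0) against the mean log2(TPM + 1) of 10 striatal or 10 cortical neuron markers (horizontal axes), 1 point per mouse, coloured by group. Foxo1 is lowest, at 3.32 TPM, in the WT vehicle mouse with the lowest striatal marker mean, 3.20, and Foxo3 keeps between 22.6 and 34.3 TPM across all mice.

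Foxo3 (chr10:42181841-42276755, minus strand) was the steadiest member. Its group means were 28.3 ± 3.67 TPM in WT vehicle (SD, n = 8), 27.6 ± 1.82 TPM in Brd1+/- vehicle (SD, n = 7), 26.9 ± 2.16 TPM in WT IMN (SD, n = 8) and 25.7 ± 1.83 TPM in Brd1+/- IMN mice (SD, n = 8), and each neighbouring pair in this order differed by less than the SDs. In log2(TPM + 1), IMN minus vehicle in WT mice was -0.07 (95% interval -0.23 to 0.10, limma, adjusted p = 0.647). The remaining factors of the family, Foxo4 and Foxo6, had means between 8.03 and 10.0 TPM and between 12.2 and 19.0 TPM over the 4 groups. Neither had a p under 0.05 in limma in any comparison, and Foxo6 ran from 5.55 to 30.6 TPM in WT vehicle mice.

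Pik3ip1 (chr11:3330401-3342971, plus strand) encodes a membrane protein that binds the catalytic subunit of PI3K and lowers its activity. In Brd1+/- mice it ran from 13.5 through a median of 15.5 to 18.4 TPM under vehicle. Under IMN it ran from 18.2 through 23.4 to 28.0 TPM. The groups met only at their edges, 7 of the 8 IMN mice being above every vehicle mouse. The difference, in the comparison that picked the gene, was 0.52 in log2(TPM + 1) (SE 0.10), and the ratio of mean TPM was 1.47. In WT mice Pik3ip1 ran from 13.6 to 32.7 TPM under vehicle and from 12.6 to 22.9 TPM under IMN. The WT groups overlapped throughout, with a difference of 0.06 (95% interval -0.28 to 0.39, limma, adjusted p = 0.858). Brd1+/- minus WT was -0.26 (SE 0.15) under vehicle and 0.21 (SE 0.12) under IMN, values not tested because they share the Brd1+/- mice that picked the gene.

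Irs2 (chr8:10984681-11008458, minus strand) encodes an adaptor that carries the insulin and IGF receptor signal to PI3K, and is itself a FOXO target. It ran from 13.6 through 20.9 to 26.1 TPM in WT vehicle mice. In Brd1+/- vehicle mice it ran from 10.3 through 15.4 to 19.0 TPM. The upper WT mice were above all Brd1+/- mice, and the lower WT mice were among them. The genotypes differed by -0.42 in log2(TPM + 1) under vehicle (95% interval -0.76 to -0.09, limma, adjusted p = 0.0907), which did not pass p under 0.01, and by -0.13 with the cortical marker mean in the fit (limma, adjusted p = 0.832). Without WT vehicle mouse 8 it was -0.49 (limma, adjusted p = 0.0308) and without mouse 6 also -0.49 (limma, adjusted p = 0.0383), which pass an FDR of 5%. Under IMN the genotype means were 16.3 and 16.3 TPM, and the interval of the difference was -0.33 to 0.32. IMN minus vehicle was -0.26 in WT mice (95% interval -0.59 to 0.07, limma, adjusted p = 0.320).

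Depp1 (chr6:116650609-116652794, plus strand), a FOXO target that takes part in the control of autophagy and peroxisomes, was the least abundant member. In Brd1+/- vehicle mice it ran from 0.399 through 0.962 to 1.18 TPM. In Brd1+/- IMN mice it ran from 1.56 through 2.51 to 3.80 TPM. All 8 IMN mice were above all 7 vehicle mice, as the choice of the gene favours. The difference was 1.00 in log2(TPM + 1) (SE 0.14), and the ratio of mean TPM was 3.15, since adding 1 to values this low understates a change. With 0.1 in place of 1 the difference was 1.58.

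In WT mice, whose values did not pick it, Depp1 ran from 0.711 through 1.13 to 1.87 TPM under vehicle. Under IMN it ran from 1.09 through 1.71 to 1.92 TPM. The groups overlapped, and 1 of the 8 IMN mice exceeded the vehicle range. The difference was 0.22 (95% interval -0.04 to 0.48, limma, adjusted p = 0.278). Whether the effect of IMN on Depp1 differed between genotypes was not tested, as the genotype in which it was seen had chosen the gene. Under IMN, 7 of the 8 Brd1+/- mice were above all 8 WT mice, with a difference of 0.53 (SE 0.13), and under vehicle Brd1+/- minus WT was -0.25 (SE 0.14), both given without a test. Summed cell markers overlapped in range between the Brd1+/- groups, but the median of striatal neuron markers was lower after IMN. Cortical neuron markers ran from 18.8 to 228 TPM under vehicle and from 14.6 to 370 TPM under IMN. Striatal neuron markers ran from 8425 through 9434 to 9819 TPM and from 6776 through 7883 to 9749 TPM. Their IMN median thus lay below every vehicle mouse. After subtraction of group means, Depp1 and the striatal marker mean had a correlation of 0.53 over the 23 mice outside the WT vehicle group. Endothelial markers ran from 163 to 190 and from 156 to 210 TPM. Markers of mural cells, astrocytes, microglia, ependyma and erythrocytes overlapped as well. In the ependymal list Ttr, Folr1, Ccdc153 and Tmem212 had medians under 0.1 TPM over all mice.

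Markers of oligodendrocytes, the myelinating cells, moved with Depp1 and Txnip. The sum of 8 of them, all detected, ran from 1359 through 2474 to 4028 TPM in Brd1+/- vehicle mice and from 1258 through 3219 to 7432 TPM in Brd1+/- IMN mice, and their mean log2(TPM + 1) was 7.47 and 7.95. Brd1+/- IMN mouse 2 had the highest marker mean of its group, 9.06, and its highest Depp1 and Txnip, and mouse 6 had the lowest values of its group, with a marker mean of 6.52, Depp1 at 1.56 TPM and Txnip at 13.0 TPM. Over the 8 Brd1+/- IMN mice the correlation with the marker mean was 0.84 for Depp1, 0.74 for Txnip and 0.35 for Pik3ip1, and over all 31 mice after subtraction of group means it was 0.38, 0.71 and 0.31. With the oligodendrocyte marker mean in the fit, a choice made after the data were seen, IMN minus vehicle in Brd1+/- mice was 0.90 (SE 0.14) for Depp1, 0.52 (SE 0.11) for Txnip and 0.50 (SE 0.11) for Pik3ip1. Over this and the other settings tried the difference ran from 0.90 to 1.58 for Depp1, from 0.49 to 0.55 for Pik3ip1 and from 0.52 to 0.69 for Txnip.

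Depp1 lies within a gene on the opposite strand, Rassf4, and the sources used here do not state whether the libraries kept the strand. Whether reads of the pair can be told apart is therefore not known. Rassf4 itself was at 0.997 TPM under vehicle and 1.43 TPM under IMN in Brd1+/- mice, a difference of 0.27 in log2(TPM + 1) (SE 0.11). In WT mice it was at 1.89 and 1.38 TPM, a difference of -0.25 (SE 0.19). Pik3ip1 overlaps Gm12592 on the opposite strand, which was at 1.52 and 1.73 TPM in the Brd1+/- groups, and Irs2 overlaps 9530052E02Rik, which was at 0.525 and 0.729 TPM there. In WT mice 9530052E02Rik was at 0.606 TPM under vehicle and 1.07 TPM under IMN, a difference of 0.36 (SE 0.13), where that of Irs2 was -0.26, and Gm12592 was at 1.78 and 1.45 TPM.

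Txnip (chr3:96557957-96561883, plus strand) encodes the thioredoxin-interacting protein, which restrains thioredoxin and glucose uptake and also answers to glucose itself. In Brd1+/- vehicle mice it ran from 9.75 through 11.6 to 13.5 TPM. Under IMN it ran from 13.0 through 19.2 to 29.5 TPM. As with Pik3ip1, 7 of the 8 IMN mice were above every vehicle mouse. The difference was 0.66 in log2(TPM + 1) (SE 0.13) and the ratio of mean TPM 1.66. Both are given without a test, as Depp1 and Pik3ip1 were picked in this comparison. In WT mice the values ran from 7.71 to 29.0 TPM under vehicle and from 10.1 to 22.2 TPM under IMN, with a difference of 0.26 (95% interval -0.19 to 0.71, limma, adjusted p = 0.474). WT vehicle mouse 1, at 29.0 TPM, had the highest oligodendrocyte marker mean of the series, 9.48, and without it the difference was 0.43 (limma, adjusted p = 0.239). Under IMN, Brd1+/- minus WT was 0.26 (95% interval -0.07 to 0.59, limma, adjusted p = 0.998), and under vehicle it was -0.13 (95% interval -0.56 to 0.30, limma, adjusted p = 0.695). These genotype differences share their Brd1+/- mice with the comparison that picked Depp1 and Pik3ip1.

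The remaining targets were Sesn1, Ccng2, Klhl24 and Bcl6. Sesn1 (chr10:41809935-41908424, plus strand), a sestrin that restrains mTOR signaling under stress, had group means between 29.9 and 33.5 TPM. Ccng2 (chr5:93267257-93276231, plus strand), an unconventional cyclin linked to cell cycle arrest, had means between 27.9 and 31.4 TPM. Klhl24 (chr16:20097542-20129221, plus strand), a substrate adaptor of a ubiquitin ligase, had means between 12.5 and 14.5 TPM. For these 3 genes, for Bcl6 and Irs2 and for both FOXO factors, IMN minus vehicle in Brd1+/- mice lay between -0.12 and 0.16 in log2(TPM + 1). The 95% intervals of Bcl6, from -0.27 to 0.56, and of Irs2, from -0.17 to 0.48, were the widest of the targets among them. Bcl6 (chr16:23965052-23988852, minus strand), a zinc finger repressor, ran from 6.82 through 16.4 to 28.1 TPM in WT vehicle mice, and from 6.15 through 10.6 to 16.1 TPM in Brd1+/- vehicle mice. The genotypes differed by -0.58 (95% interval -1.14 to -0.02, limma, adjusted p = 0.148), by -0.74 without WT vehicle mouse 8 (limma, adjusted p = 0.0316), and by -0.02 with the cortical marker mean in the fit. Its correlation with the cortical marker mean, after subtraction of group means, was 0.90 over the 8 WT vehicle mice and 0.24 over the other 23.

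Counted over the group, 0 of 10 members passed p under 0.01 in limma between IMN and vehicle in WT mice, where 6.95% of all 23579 genes tested did, and 1 of 10, Foxo1, had a p under 0.05, where 23.1% of all genes did. Of the 8 members tested between genotypes under vehicle, 0 passed p under 0.01, where 13.6% of all genes did, and 3, Foxo1, Irs2 and Bcl6, had a p under 0.05, where 30.9% of all genes did. With WT vehicle mouse 6 or 8 left out, 2 and 3 of the 8 passed p under 0.01, where 19.9% and 22.4% of all genes did. Under IMN, 0 of 8 passed either limit, where 0.703% of all genes passed p under 0.01 and 3.92% p under 0.05. In the fit behind the picked comparison, 1.83% of all 23020 genes passed p under 0.01 (0.869% were higher after IMN and 0.964% were lower), and 0 passed a Benjamini-Hochberg FDR of 5%. The genotype comparisons share their Brd1+/- mice with the comparison that assembled the group. The median difference of all genes tested was -0.13 between genotypes under vehicle and -0.08 between IMN and vehicle in WT mice, so the values of -0.42 for Irs2 and -0.58 for Bcl6 stand beside a general shift of -0.13. Median-of-ratios scaling brought the WT median to 0.0013, and Foxo1 there to 1.19.

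**Figure D3:**
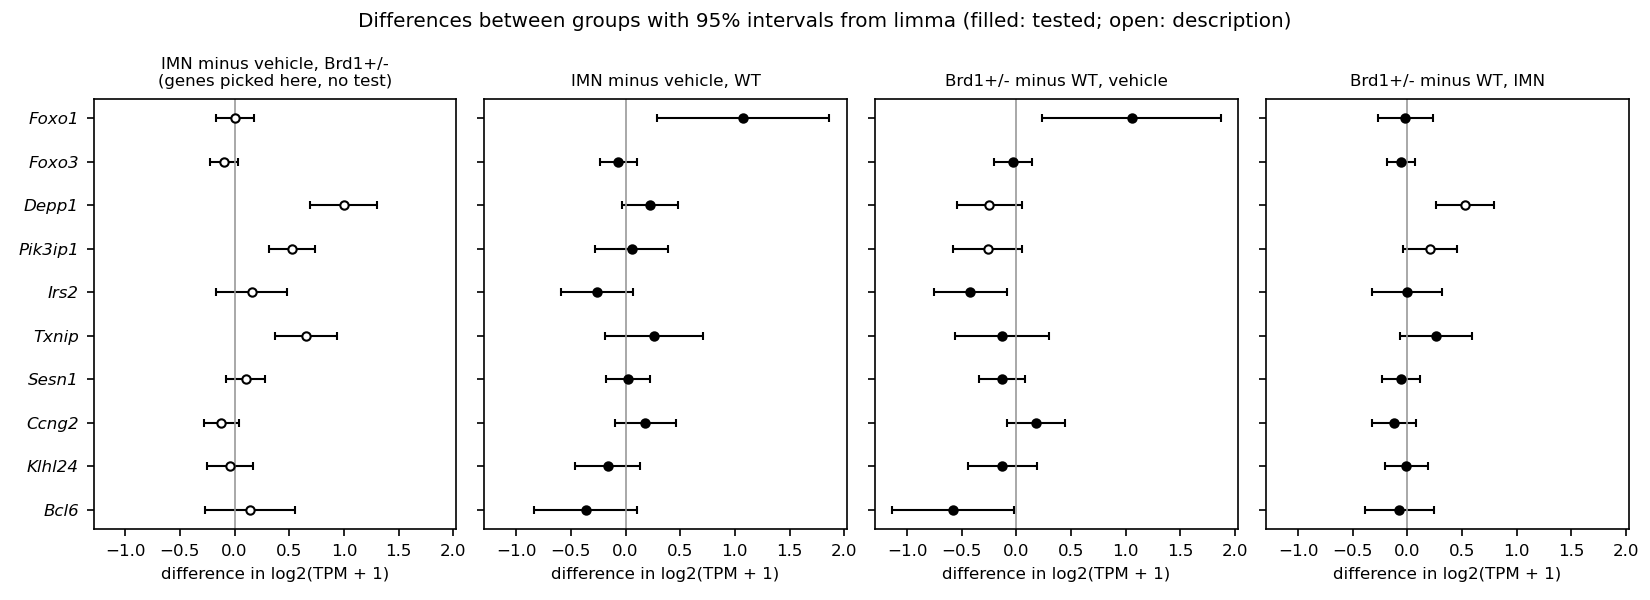
Differences in log2(TPM + 1) between groups (horizontal axis) with 95% intervals from limma, for the 10 genes in each of the 4 comparisons. Filled points were tested and open points are descriptions. Intervals of open points take no account of how the genes were chosen and are not tests. Depp1, Txnip and Pik3ip1 stand at 1.00, 0.66 and 0.52 in the comparison in which genes were picked, and Foxo1 at 1.07 and 1.05 in the comparisons with WT vehicle mice.

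Promoters were read for the forkhead core, TGTTTAC or on the other strand GTAAACA, and for the core of the insulin response element, TGTTTTG or CAAAACA; the motifs share their first 5 letters. Sequences of the 250 bases before the start were from RefSeq (GRCm38.p6), and 9 of the 10 members matched, over 11 windows. The forkhead core was present in 1 member, Txnip, beginning 121 bases before the start, and 3.17% of all 32851 windows of this length, or 3.54% of 27025 genes, held it. The insulin response core was present in Irs2 and Ccng2, 37 and 16 bases before RefSeq's start, and 5.56% of all windows, or 6.38% of genes, held it. RefSeq's start was that of the GENCODE coordinates given above for Txnip, lay 471 bases upstream of it for Irs2, and lay 316 and 75 bases downstream of it, within the gene, for Ccng2 and Depp1. The windows of Txnip and Irs2 are shown because they hold a match, in capitals, and that of Depp1 because the gene led the choice and holds none. They are chr3:96557707-96557956 on the plus strand, chr8:11008930-11009179 on the minus strand and chr6:116650434-116650608 on the plus strand, the last cut to 175 bases where the annotated gene begins.
Txnip: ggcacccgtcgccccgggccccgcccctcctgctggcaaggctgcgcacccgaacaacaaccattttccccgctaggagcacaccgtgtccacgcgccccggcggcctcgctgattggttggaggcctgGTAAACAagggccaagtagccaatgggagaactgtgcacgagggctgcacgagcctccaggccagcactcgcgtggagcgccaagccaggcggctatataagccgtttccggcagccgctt
Irs2: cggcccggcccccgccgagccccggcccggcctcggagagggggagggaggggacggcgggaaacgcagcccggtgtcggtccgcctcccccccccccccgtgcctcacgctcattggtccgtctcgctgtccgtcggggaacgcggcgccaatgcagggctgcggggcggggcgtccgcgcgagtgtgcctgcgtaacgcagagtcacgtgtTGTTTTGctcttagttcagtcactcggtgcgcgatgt
Depp1: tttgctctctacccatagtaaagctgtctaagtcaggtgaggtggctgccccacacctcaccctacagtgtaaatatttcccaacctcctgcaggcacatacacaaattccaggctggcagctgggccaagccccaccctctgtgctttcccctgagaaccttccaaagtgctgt

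Within groups, the members did not move as a block. Over the 31 mice, after subtraction of group means, the 45 pairs of members had a median correlation of 0.18, and 7 pairs were above 0.5. Irs2 and Bcl6 were the closest pair, at 0.87, and stayed at 0.86 with the cortical marker mean removed. Foxo3 and Klhl24 stood at 0.64, and Foxo1 and Ccng2 at 0.62, or 0.43 with the cortical marker mean removed. Pik3ip1 and Txnip stood at 0.54 and Depp1 and Txnip at 0.47, whereas Depp1 and Pik3ip1 stood at 0.24. These values describe mice that share a tissue punch and a fixed TPM sum.

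**Figure D4:**
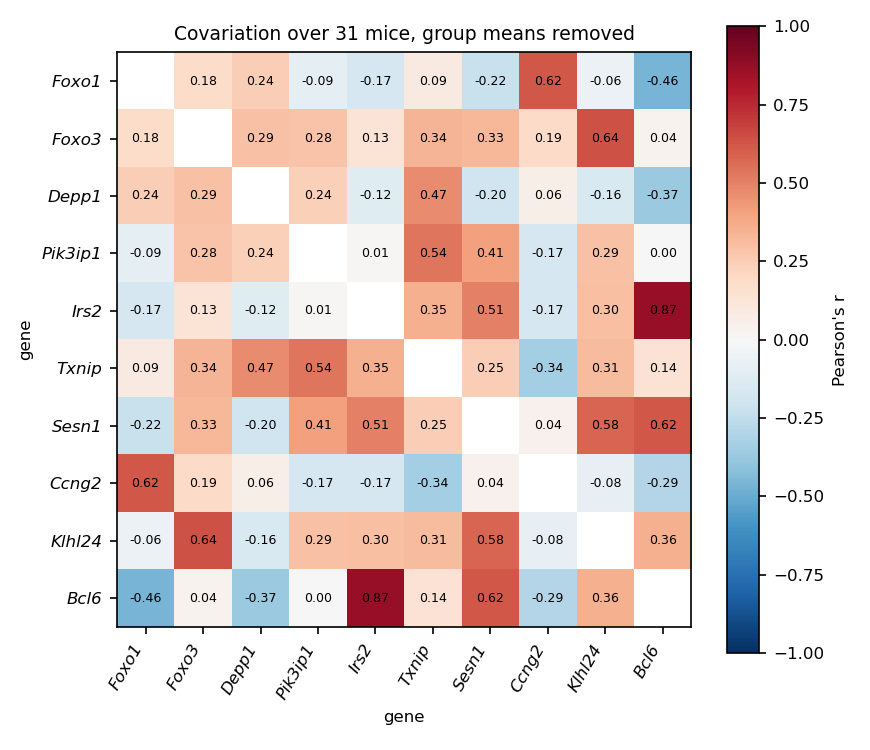
Pearson's r of log2(TPM + 1) for each pair of the 10 genes (both axes) over 31 mice after subtraction of group means, from blue at -1 to red at 1. Irs2 and Bcl6 are the strongest pair, at 0.87, and Depp1 and Pik3ip1 stand at 0.24.

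Among 18193 genes above 0.1 TPM in all mice, Depp1 was closest in this measure to Ddit4, an inhibitor of mTOR signaling that glucocorticoids and low oxygen induce, at 0.76. Hist1h3d, Gamt, Pik3r4 and Abcg1 followed at 0.71, 0.68, 0.67 and 0.67. Pik3ip1 was closest to Adamts9 at 0.68, followed by Wdr76, Edem2, Gm17936 and Galnt10 between 0.62 and 0.65. Foxo1 was closest to Rarb at 0.97, then to Gpr6, Pde7b, Grik2 and Doc2b at 0.96, Gpr6 being 1 of the 10 striatal markers. Foxo3 was closest to Adcy9 at 0.84, followed by Glg1, Heatr5b, Scn2a and Wdr59 between 0.80 and 0.82.

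The wider pathway was counted in lists written from general knowledge, but with earlier results of these data known. In the fits given here 0 of their genes passed an FDR of 5% in limma in any of the 4 comparisons. The count was above 0 in other settings, all 4 groups in one fit and fits without WT vehicle mouse 6 or 8 among them. Without mouse 8, 10 of 32 other FOXO targets and 9 of 33 genes of the PI3K to AKT input passed it between genotypes under vehicle, beside 5482 of all 22991 genes, and 8 and 5 did after IMN in WT mice, beside 2459 of all 23391. Of 32 other FOXO targets tested, 6 were lower and 0 higher after IMN in WT mice at p under 0.01 (limma), beside 5.6% of all genes lower and 1.35% higher, with a median of -0.19 beside -0.08 for all genes. The split of all genes depended on scaling, at 1321 lower and 318 higher here. It was 749 and 667 with median-of-ratios scaling, and 652 and 727 with quantile normalization. The 3 targets with the smallest p were Cited2, a transcriptional coregulator, at -0.27 (SE 0.08, adjusted p = 0.141), Bnip3, a mitophagy receptor, at -0.31 (SE 0.09, adjusted p = 0.141), and Gabarapl1, an autophagosome protein, at -0.20 (SE 0.06, adjusted p = 0.141). Between genotypes under vehicle, 6 of the 32 were lower in Brd1+/- mice and 0 higher, beside 12.1% and 1.47% of all genes. That split of all genes also depended on scaling, at 2811 lower and 342 higher here. It was 1233 and 900 with median-of-ratios scaling, and 1132 and 1077 with quantile normalization. Gadd45a, a stress sensor in growth arrest, fell by 1.36 (SE 0.37, adjusted p = 0.0556), Mxi1 by 0.25 (SE 0.07) and Trib1 by 0.96 (SE 0.28). With the cortical marker mean in the fit the counts of other targets were 0 in both comparisons. Without WT vehicle mouse 7, 3 targets passed after IMN in WT mice, where the share of all genes was 4.58% in place of 6.95%. Under IMN, 1 of the 32, the cyclin gene Ccnd2, was lower in Brd1+/- mice, by 0.60 (SE 0.14, limma, adjusted p = 0.831), beside 0.514% of all genes lower and 0.189% higher.

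Of 33 genes of the PI3K to AKT input tested, 1 was higher and 3 lower after IMN in WT mice at p under 0.01 (limma), beside 6.95% of all genes in either direction. Pik3cg, a PI3K catalytic subunit, was higher by 0.32 (SE 0.10), and Ywhab, Ywhah and Ywhag, which encode 14-3-3 proteins, were lower by values of -0.30, -0.87 and -0.65. Under vehicle 6 were lower in Brd1+/- mice and 0 higher, beside 13.6% of all genes in either direction, among them Ywhaq at -0.80 and Akt1 at -0.21 (SE 0.07, limma, adjusted p = 0.0653). Akt2 had no p under 0.05 in any comparison. With the cortical marker mean in the fit the counts were 0 after IMN in WT mice and 2 under vehicle, and those of all genes fell as well, from 1639 to 310 of 23579 and from 3153 to 400 of 23200. Of 17 genes whose products modify FOXO or export it from the nucleus, 1 passed in each of these comparisons, Prkaa2, an AMPK subunit, at -0.64 and -0.68, and without WT vehicle mouse 8 the count under vehicle was 6, where 22.4% of all genes passed. Under IMN, 0 of the 33 and 0 of the 17 passed p under 0.01 between genotypes in limma, beside 0.703% of all genes. At p under 0.05 the counts were 1 and 0, beside 3.92% of all genes.

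Some FOXO targets and regulators, such as Cdkn1a and Sgk1, are also induced by glucocorticoids, and 16 such genes were listed. In WT mice 2 were higher after IMN, Sult1a1 by 0.62 (SE 0.15, limma, adjusted p = 0.141) and Ddit4 by 0.48 (SE 0.16, limma, adjusted p = 0.141), and 1, Dusp1, was lower, at -0.54, beside 1.35% of all genes higher and 5.6% lower. Ddit4 ran from 16.9 to 43.6 TPM under vehicle and from 29.5 to 38.0 TPM under IMN in WT mice. With a mouse left out, 1 to 5 of the 16 passed in this comparison, 5 being without WT vehicle mouse 1, where 4.07% of all genes passed. In the Brd1+/- comparison that picked Depp1 and Pik3ip1, Ddit4, Sgk1 (a kinase that also phosphorylates FOXO) and Cdkn1a stood at 0.87, 0.90 and 0.60. They were named because their p was the smallest of the list there. Of the whole list 14 of 16 were above 0, beside 12515 of all 23020 genes. The median was 0.42 beside 0.01 for all genes, and nothing is read from these values. Between genotypes, 1 of the 16, Zbtb16, was lower under vehicle, by 1.34 (SE 0.40, limma, adjusted p = 0.0584), beside 12.1% of all genes lower, and 0 passed under IMN, where 0 also had a p under 0.05.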

How the data were processed

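CPu punches of 31 mice in 4 groups were analysed, with groups and mouse numbers from the sample labels and 0 columns left unused. Per the submitters' processing notes, reads were checked with FastQC, trimmed with Trimmomatic, aligned to GRCm38 with HISAT2 2.1.0 and quantified with StringTie 1.3.4. The authors deposited TPM per Ensembl gene, which sum to between 999787 and 999918 per mouse. TPM do not show the depth of each mouse, for which the study's methods state only a lower limit, so precision rests on the spread between mice. Symbols and positions were from GENCODE M21 (GRCm38), which named 52489 of 52636 identifiers.

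Expression as log2(TPM + 1) was compared between pairs of groups, each fitted alone, by limma 3.58.1 (R 4.3.3) using moderated variances with a mean trend, over genes above 0.1 TPM in at least 7 mice. Tests were two-sided, adjusted by Benjamini-Hochberg over all genes, with thresholds of p under 0.01 and an FDR of 5%. The study's edgeR needs read counts and was not run. The fit was tested on simulated data. No 2 mice had identical values (pairwise correlations from 0.911 to 0.982).

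The members and all lists were chosen with earlier results of these data known. Named genes are the members, up to 3 genes per direction, list and comparison with the smallest p among those under 0.01, Foxo4, Foxo6, Akt1, Akt2, Sgk1, Brd1, the 5 genes closest to each of 4 members, and markers. Genes overlapping a member on the opposite strand were named outside this rule. Some genes that the rule names are not reported here. Sequences were read and correlations computed in Python 3.11.15 with pandas 2.3.3. Marker lists of mural cells, astrocytes, oligodendrocytes, microglia, ependyma and erythrocytes were compared by their summed levels. Alternatives were a pseudocount of 0.1, no filter, a mean of at least 1 TPM, median-of-ratios and quantile scaling, no trend, cortical, endothelial, striatal or oligodendrocyte marker means as covariates (the last pair added after the values were seen), all 4 groups in one fit, the mouse number as a block, and each mouse left out. The Y-linked genes were looked at after the values were seen.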

Additional observations from a re-analysis of the deposited data

Results flagged for a closer look

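Of the 40 sets of values (10 members in 4 groups), 4 held a mouse far from the others of its group by Dixon's test, where chance gives about 1 in 20. Irs2 was at 26.7 TPM in Brd1+/- IMN mouse 3, and the next highest mouse was at 17.4 TPM. Txnip was at 29.0 TPM in WT vehicle mouse 1, where the next was at 16.9 TPM, and at 29.5 TPM in Brd1+/- IMN mouse 2, where the next was at 20.3 TPM. These 2 mice had the highest oligodendrocyte marker means of the series, 9.48 and 9.06 in log2(TPM + 1), and with that mean in the fit Txnip differed by 0.30 between IMN and vehicle in WT mice (limma, adjusted p = 0.240). Without the latter mouse the Txnip values of Brd1+/- IMN mice still reached above the highest Brd1+/- vehicle mouse, at 13.5 TPM. Sesn1 was at 23.4 TPM in WT vehicle mouse 8, the lowest of its group, where the next was at 31.8 TPM.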

How the results depend on the processing

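Same-numbered mice were compared by the correlation of their deviations from group means. It was over 0.1 for 2 of 8 numbers between IMN and vehicle in WT mice and 3 of 7 in Brd1+/- mice. Between genotypes it was so for 1 of 7 under vehicle and 2 of 8 under IMN. Mice with different numbers were not compared, so whether the numbers follow litters cannot be told. The count of members at p under 0.01 between IMN and vehicle in WT mice was 0, and 1, Foxo1, under median-of-ratios scaling, quantile normalization or all 4 groups in one fit. Of all genes 6.01%, 5.85% and 14.4% passed in these fits. The count of members ran from 0 to 1 with a mouse left out, being 1 without WT vehicle mouse 3, 6 or 8 or WT IMN mouse 5. Under vehicle the count between genotypes was 0, and 1, Foxo1, under the same 3 settings and in a fit blocked on mouse number. Of all genes 9.19%, 9.52%, 21.2% and 17.7% passed in these fits. With the block Foxo1 differed by 1.20 (limma, adjusted p = 0.0473). With no Brd1+/- vehicle mouse 8, that block also takes WT vehicle mouse 8 out of the difference, and leaving out this mouse without a block gave 1.20 as well (limma, adjusted p = 0.0349). The count of members under vehicle ran from 0 to 3 with a mouse left out. It was 1 without WT vehicle mouse 3 or Brd1+/- vehicle mouse 3, 2 without WT vehicle mouse 6 and 3 (Foxo1, Irs2 and Bcl6) without WT vehicle mouse 8. Adjusted p for Foxo1 in WT mice ran from 0.0250 to 0.833 over the settings. The difference of Depp1 in Brd1+/- mice was 1.58 with a pseudocount of 0.1 and from 0.93 to 1.07 with a mouse left out, and that of Pik3ip1 from 0.49 to 0.57. Median-of-ratios scaling took the median of all genes from -0.08 to 0.0013 in WT mice. The counts in the other lists that moved by over 1.5 times did so mostly in the comparisons with WT vehicle mice: with the striatal marker mean as a covariate the other targets went from 6 to 1 after IMN in WT mice and from 6 to 0 under vehicle, the PI3K to AKT input from 4 to 0 and from 6 to 1, and all genes from 1639 to 301 of 23579 and from 3153 to 343 of 23200. The cause was not tested. With a mouse left out, the other targets ran from 2 to 9 after IMN in WT mice and from 4 to 10 under vehicle. The PI3K to AKT input ran from 1 to 8 and from 5 to 9, and FOXO modifiers from 0 to 2 and from 1 to 6. The glucocorticoid list ran from 1 to 5 and from 0 to 2. The highest counts were without WT vehicle mouse 8, 6 or 1. The share of all genes ran from 3.88% to 15.3% and from 8.89% to 22.4% in the same fits, and was highest without mouse 8. The block moved other targets in WT mice from 6 to 3 and FOXO modifiers under vehicle from 1 to 6, the count also found without WT vehicle mouse 8 and no block. It took the glucocorticoid list under vehicle from 1 to 2. With all 4 groups in one fit, counts under vehicle went from 6 to 10 for other targets and from 1 to 3 for FOXO modifiers. The glucocorticoid list went from 1 to 2 there, where 21.2% of all genes passed. The oligodendrocyte marker mean as a covariate took FOXO modifiers from 1 to 2 after IMN in WT mice. All tests rest on 7 or 8 mice per group, and the TPM do not show each mouse's depth.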
